A study of Mus musculus with 18 samples.

Results

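The genes described here are 58 genes of the cell cycle and of DNA replication, chosen by name. All 58 were found by symbol, ignoring case, among the 16319 genes of a deposited table of normalised reads. Of these genes, 15 had several transcripts in the table, the row with the highest mean was used, and the rows differed for Birc5 alone. By role they are 10 S phase genes (6 Mcm genes, Pcna, Rrm1, Rrm2 and Tyms), 4 other replication genes, 30 mitotic genes, 8 G1 cyclins and kinases, 3 inhibitors of cyclin-dependent kinases (CDK) and 3 E2F factors.

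The table holds messenger RNA levels of 7 macrophage populations, monocytes and neutrophils sorted from C57BL/6 mice, with 2 libraries for each of the 9 populations. Experiment 1 held brain microglia, peritoneal cavity macrophages, macrophages of the small intestine (ileum) and macrophages of the large intestine (colon). Experiment 2 held splenic red pulp macrophages, liver Kupffer cells, lung macrophages, and monocytes and neutrophils of the bone marrow. The labels name no treatment or genetic change, give no age or sort gate, and do not say that the 2 libraries of a population came from separate animals, so p-values measure only the spread between these libraries, which may be technical. Each population was made in a single experiment, so population and experiment cannot be told apart across the experiments, and each population was compared with the mean of the others of its own experiment.

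In a dividing cell, D-type cyclins with their kinases CDK4 and CDK6 start the inactivation of the retinoblastoma protein in G1, which frees E2F factors to drive the genes of S phase. The Mcm proteins form the helicase that is loaded at origins, Pcna is the sliding clamp of the DNA polymerases, and ribonucleotide reductase (Rrm1, Rrm2) and thymidylate synthase (Tyms) make the building blocks of DNA. Genes of mitosis are transcribed later, in G2, under the DREAM and MuvB-B-Myb-FoxM1 complexes, which bind a CHR element (TTTGAA) close to the transcription start, often beside CCAAT boxes bound by NF-Y. Monocytes and neutrophils descend from dividing precursors in the bone marrow, while many tissue macrophages maintain themselves by slow local division.

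Promoter sequences are shown for the 5 S phase and mitotic genes called in most comparisons, at 5 to 7 comparisons each, among the genes with a window in the table used, which leaves out Stmn1, called in 8. They let the letters of the elements named above be read beside the results of these genes. Of the genes called in 5 comparisons, Birc5 came before Bub1b by its larger log2 fold change. Of the 58 genes, 49 have at least 1 window in the table of RefSeq promoters (GRCm38.p6, 250 bases before to 50 after the annotated start, on the gene's strand), and coordinates of this build are not those of the mm9 alignment. Windows were searched on both strands for TTTGAA (CHR), for CCAAT and for TTCCCGC and TTGGCGC as motifs of E2F. The CHR letters lay in a window of 18 of 25 mitotic genes and 1 of 9 S phase genes, and in a window of 20.2% of all 27025 genes. The same 18 mitotic genes had TTTGAA and CCAAT in 1 window, which 7.97% of all genes did. An E2F motif lay in a window of 5 of 9 S phase genes and 4 of 25 mitotic genes, and in a window of 7.79% of all genes. In 134 of all 32851 windows a TTGGCGC overlapped a CCAAT box. Capitals mark each motif found, and CCAAT or TTGGCGC read on the other strand appear as ATTGG and GCGCCAA. A match is a description of the letters in the window.

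Ccnb2 (cyclin B2, chr9:70421505-70421804, minus strand) had 2 TTTGAA and 3 CCAAT.
Ccnb2: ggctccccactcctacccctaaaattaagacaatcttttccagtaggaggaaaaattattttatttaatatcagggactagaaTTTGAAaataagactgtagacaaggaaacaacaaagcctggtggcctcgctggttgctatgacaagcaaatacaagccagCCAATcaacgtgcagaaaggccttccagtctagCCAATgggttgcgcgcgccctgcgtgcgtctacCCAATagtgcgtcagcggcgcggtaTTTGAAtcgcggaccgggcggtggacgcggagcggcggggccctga
Cdca3 (a factor of mitotic entry, chr6:124829926-124830225, plus strand) had 1 TTTGAA and 3 CCAAT.
Cdca3: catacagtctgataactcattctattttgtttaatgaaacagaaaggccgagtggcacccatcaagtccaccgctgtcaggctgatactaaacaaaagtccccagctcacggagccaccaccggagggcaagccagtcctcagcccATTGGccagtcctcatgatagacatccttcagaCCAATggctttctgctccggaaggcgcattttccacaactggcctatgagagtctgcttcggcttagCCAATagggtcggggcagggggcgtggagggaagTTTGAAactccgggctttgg
Cdca8 (borealin, of the chromosomal passenger complex, chr4:124936868-124937167, minus strand) had 1 TTTGAA that shares a base with the last of 4 CCAAT.
Cdca8: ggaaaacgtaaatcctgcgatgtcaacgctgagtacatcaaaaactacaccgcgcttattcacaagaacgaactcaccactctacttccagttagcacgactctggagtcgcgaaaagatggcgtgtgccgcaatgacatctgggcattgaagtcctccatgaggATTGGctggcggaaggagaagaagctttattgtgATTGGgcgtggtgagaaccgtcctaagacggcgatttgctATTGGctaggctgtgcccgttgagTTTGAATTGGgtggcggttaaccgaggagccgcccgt
Cenpa (the histone H3 variant of centromeres, chr5:30666636-30666935, plus strand) had 1 TTTGAA and 2 CCAAT.
Cenpa: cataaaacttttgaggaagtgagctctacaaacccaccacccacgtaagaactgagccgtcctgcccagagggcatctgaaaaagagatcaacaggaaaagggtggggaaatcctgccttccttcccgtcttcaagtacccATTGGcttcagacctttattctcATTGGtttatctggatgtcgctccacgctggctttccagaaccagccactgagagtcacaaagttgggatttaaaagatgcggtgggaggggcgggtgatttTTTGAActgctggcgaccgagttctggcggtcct
Birc5 (survivin, of the chromosomal passenger complex, chr11:117848987-117849286, plus strand) had no match to these letters in this window.
Birc5: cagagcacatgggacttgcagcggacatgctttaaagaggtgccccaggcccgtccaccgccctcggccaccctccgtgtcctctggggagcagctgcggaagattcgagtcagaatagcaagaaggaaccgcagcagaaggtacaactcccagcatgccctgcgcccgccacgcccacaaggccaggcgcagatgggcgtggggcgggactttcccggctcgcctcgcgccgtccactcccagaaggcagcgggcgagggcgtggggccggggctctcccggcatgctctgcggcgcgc
Mcm5 (a subunit of the replicative helicase, chr8:75109259-75109558, plus strand) was added after its values were seen, as an S phase gene called in 4 comparisons, as Mcm6 and Mcm7 were, and had 2 GCGCCAA and 3 CCAAT.
Mcm5: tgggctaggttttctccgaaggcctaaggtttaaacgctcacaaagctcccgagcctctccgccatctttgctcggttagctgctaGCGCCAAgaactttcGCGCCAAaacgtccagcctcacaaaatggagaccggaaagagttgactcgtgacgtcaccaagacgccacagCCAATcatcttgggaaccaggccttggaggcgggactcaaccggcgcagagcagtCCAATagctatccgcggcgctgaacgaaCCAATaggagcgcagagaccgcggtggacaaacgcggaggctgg

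Each library held 593552 to 1595119 reads in genes. A gene at 0 has an upper limit of 3 reads, which is 1.69 to 6.59 normalised reads depending on the library, and such limits cover counting error only. Spearman correlations across genes were 0.867 to 0.949 between libraries of 1 population and 0.556 to 0.905 between populations. Of 42 marker genes of the 9 populations, 31 were higher in both libraries of the named population than in every other library, the 2 intestinal populations counted as 1. The markers of lung, the intestine and monocytes met this for 2 of 5 each. Of the lung markers, Car4 and Siglec5 did, while Chi3l3 was at 4672 and 8072 in lung and at 11898 and 11522 in neutrophils, Marco overlapped with Kupffer cells and Pparg with spleen. The summed lung markers were at 6110 and 9777 in lung and at 11934 and 11555 in neutrophils. Ly6c2 was higher in neutrophils than in monocytes, whose Ccr2 and F13a1 were above all other libraries, and Il10, listed for the intestine, was at 15.7 and 7.96 in the small intestine but at 1.18 and 1.74 in the large intestine. In bulk RNA, fewer dividing cells and less RNA per cell cannot be told apart.

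Monocytes had the highest mean of the 9 populations for 43 of the 58 genes, among them 28 of the 30 mitotic genes and 8 of the 10 S phase genes. Microglia had the lowest mean for 25 of the mitotic genes and 5 of the S phase genes. How often any gene of the whole set had its highest or lowest mean in these populations was not counted. The summed level of the 30 mitotic genes was 1964 and 3056 normalised reads in the 2 monocyte libraries and 53.1 and 27.5 in microglia. It was 239 and 198 in peritoneal macrophages, 646 and 393 in the small intestine, 556 and 470 in the large intestine, 651 and 524 in spleen macrophages, 198 and 521 in Kupffer cells, 569 and 522 in lung and 820 and 488 in neutrophils. Every other library thus lay below the lower monocyte library, and the nearest was neutrophil replicate 1.

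The summed S phase genes were spread less, from 115 to 1248 normalised reads. The monocyte libraries held 1046 and 1248, and all others stayed at or below 555. Microglia held 294 and 281, and neutrophils 274 and 115. The summed mitotic level relative to the summed S phase level was 0.180 and 0.0978 in microglia, 1.88 and 2.45 in monocytes, and 3.00 and 4.26 in neutrophils, and 0.617 to 1.28 in the other 6 populations. Neutrophils had the lowest mean of the summed S phase genes, at 194 against 288 in microglia, and Pcna alone made up 171 and 148 of the sum in microglia and 38.6 and 28.6 in neutrophils. By gene, microglia had the lowest mean for 5 of the 10 S phase genes, peritoneal macrophages for 3 and neutrophils for 2.

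**Figure D1:**
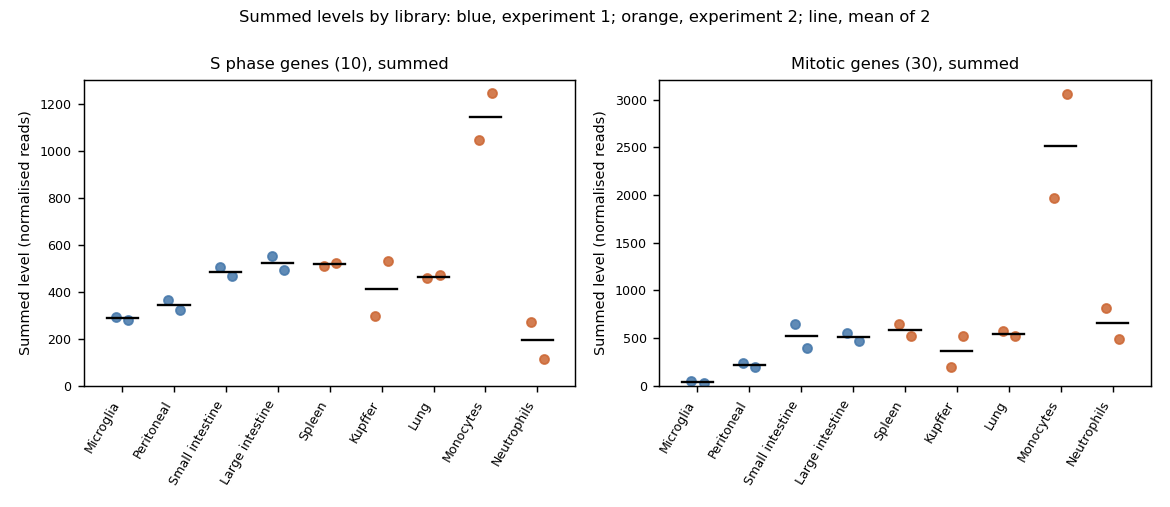
Summed level in normalised reads (y axis) of the 10 S phase genes (left) and the 30 mitotic genes (right) in each population (x axis). Points are libraries, blue for experiment 1 and orange for experiment 2, and lines are means of 2 libraries; the monocyte libraries are highest in both panels, at 1046 and 1248 and at 1964 and 3056.

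**Figure D2:**
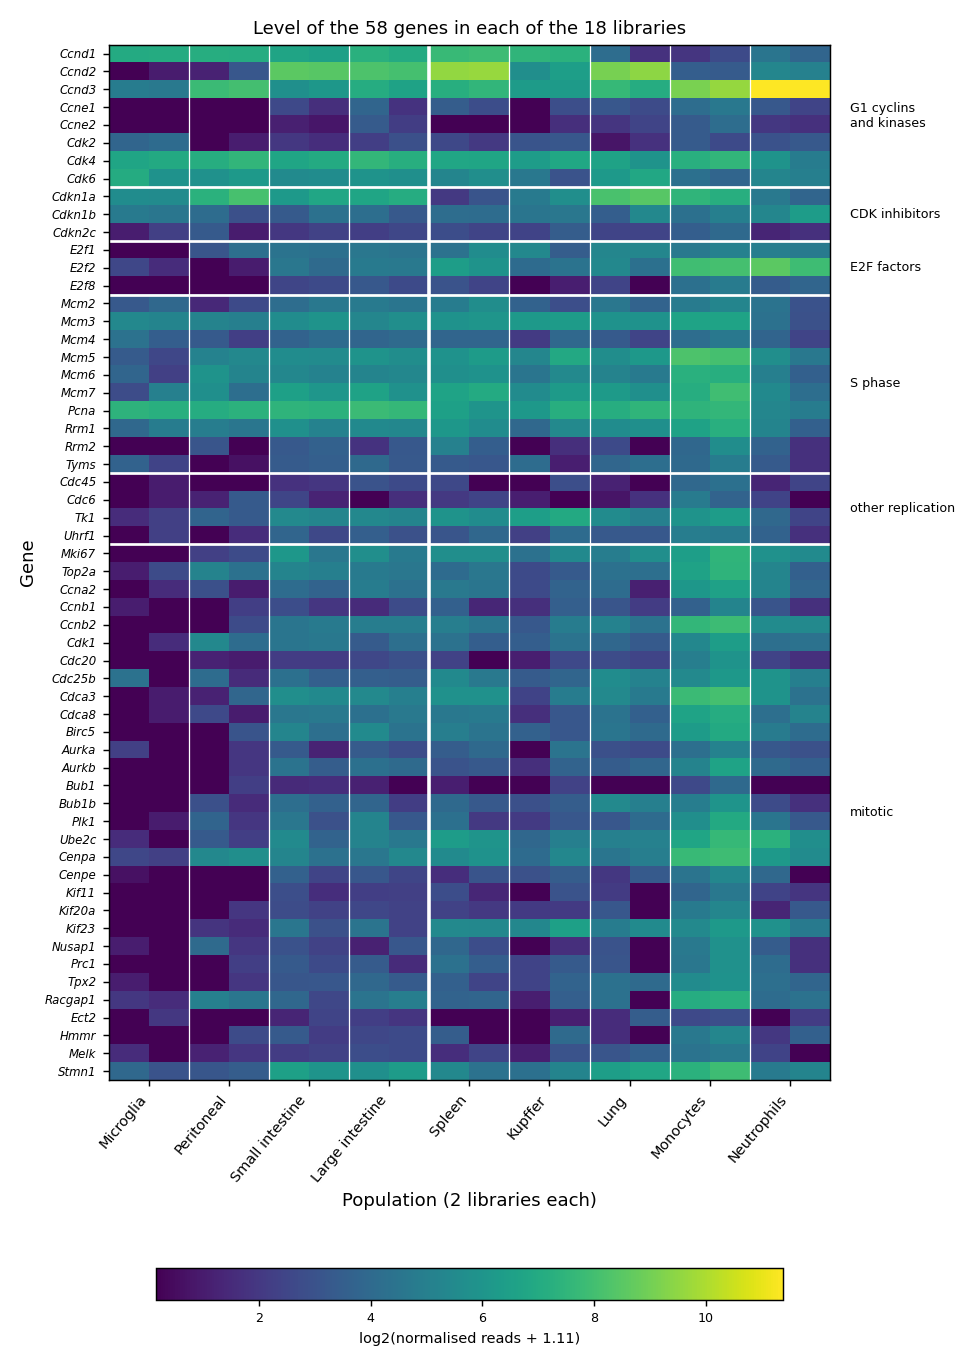
Level of each of the 58 genes (rows, by role) in each of the 18 libraries (columns, 2 per population) as log2(normalised reads + 1.11), from dark (low) to yellow (high). Most mitotic rows are darkest in microglia and brightest in monocytes, while Ccnd1, Ccnd2 and Ccnd3 each follow another order of populations.

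Of the 58 genes, 57 passed the filter on low values, and Bub1, at 14.6 or less in all libraries, did not. Among the populations of experiment 1, 32 of 57 differed by the moderated F test (limma, BH, adjusted p under 0.05), which 35.3% of all 12075 genes tested did. In experiment 2, 39 of 57 differed, with 51.2% of all genes, and 25 without monocytes replicate 2. In the comparisons below, calls needed an adjusted p (limma, BH) under 0.05 together with a log2 fold change of at least 1 in size, on the scale log2(normalised reads + 1.11), which understates changes of genes at low levels.

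In experiment 1, microglia had 1 gene called higher and 28 lower, against 10.7% and 15.2% of all genes. Peritoneal macrophages had 4 higher and 8 lower (7% and 14.4% of all genes). Macrophages of the small intestine had 12 higher and 0 lower (6.24% and 1.81%), and those of the large intestine 16 higher and 0 lower (7.09% and 2.13%). At an unadjusted p under 0.05 (limma), 1 gene was lower in the small intestine and 0 in the large intestine. These are comparisons of populations that share their partners: microglia, where many of these genes were at 0, are among the partners of the intestinal populations.

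The intestinal counts leaned on single libraries. In the small intestine 12 became 1 without its replicate 3 and 5 without its replicate 4, and in the large intestine 16 became 3 without its replicate 2, 7 without its replicate 3 and 10 without small intestine replicate 4. The peritoneal 4 became 2 without its replicate 2 and the 8 became 4 without its replicate 1. For microglia, 28 stayed between 21 and 30, and the gene called higher was lost without microglia replicate 2. Over all genes, the share of calls that were higher was 32.7% in peritoneal macrophages, 77.6% in the small and 76.9% in the large intestine, and 45.8%, 63.8% and 66.5% with quantile normalization. With equal library totals it was 44.0% in peritoneal macrophages.

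In experiment 2, monocytes had 37 genes called higher and 3 lower, against 6.34% and 9.28% of all genes. Neutrophils had 3 higher and 12 lower (15% and 20.2%), spleen macrophages 2 higher and 4 lower (10% and 6.12%), Kupffer cells 2 higher and 11 lower (9.47% and 6.97%) and lung macrophages 3 higher and 6 lower (8.99% and 8.8%). The monocyte share of higher calls was thus far above that of all genes, while the shares of spleen and lung were near or below it. These comparisons share partners too, and monocytes are among the partners of the other populations. Of the 37 in monocytes, 20 remained in number without monocytes replicate 1 and 12 without replicate 2, which held the higher mitotic sum.

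Single libraries moved the other counts of experiment 2 as well. Without neutrophil replicate 3, the 12 lower genes of neutrophils became 4. Without Kupffer replicate 1, which held the lower sums, the 11 of Kupffer cells became 4, and without Kupffer replicate 2 the 2 higher genes became 1. The 6 lower genes of lung became 1 without lung replicate 2, and the 3 higher became 5 without spleen replicate 1 or Kupffer replicate 2. The 4 lower genes of spleen became 2 without spleen replicate 2. Over all genes, the share of calls that were higher was 42.6% in neutrophils, 40.6% in monocytes, 62.1% in spleen, 57.6% in Kupffer cells and 50.5% in lung. With equal library totals it was 17.1%, 53.9%, 72.5%, 68.1% and 60.6%, and the median log2 fold change of all genes moved from -0.24 to -0.86 in neutrophils.

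**Figure D3:**
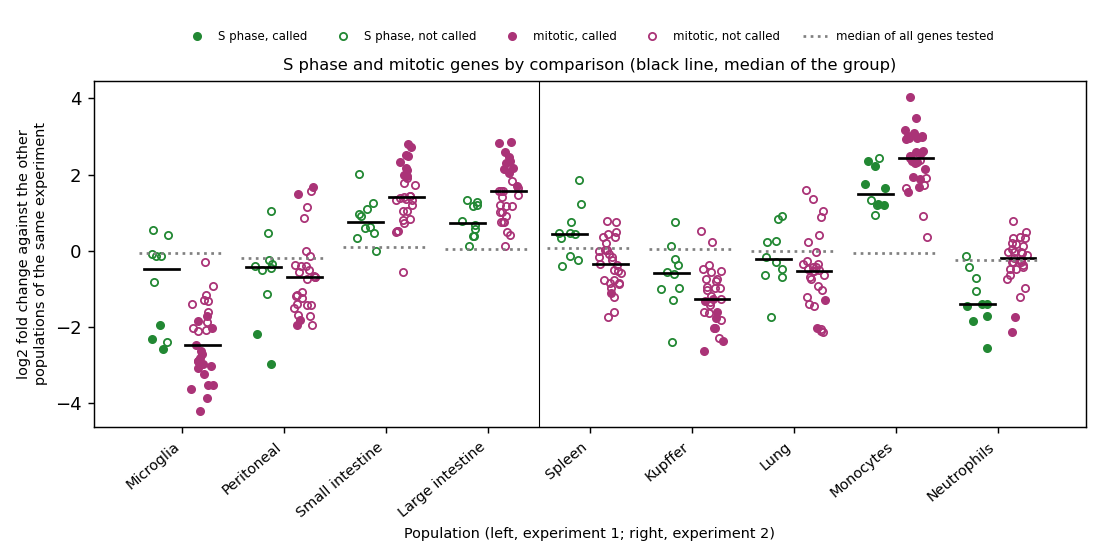
Log2 fold change (y axis) of each tested S phase gene (green) and mitotic gene (purple) in each population (x axis) against the mean of the other populations of its experiment. Filled points were called, black lines are medians of the group and dotted lines medians of all genes; values of genes listed at 0 depend on the pseudocount. The mitotic median is -2.48 in microglia and 2.44 in monocytes, the S phase median -1.39 in neutrophils.

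Among the mitotic genes, 23 of 29 tested were called higher in monocytes and 0 lower, at a median log2 fold change of 2.44, with -0.06 for all genes. At an unadjusted p under 0.05 (limma), 26 were higher and 0 lower. The share of all genes called higher in monocytes was 6.34%. Racgap1, a GTPase-activating protein of cytokinesis, was at 136 and 157 normalised reads in monocytes and at 19.8 or less in the other libraries of experiment 2, a log2 fold change of 4.05 ± 0.78 (SE; adjusted p = 0.00141). Cdc20, an activator of the anaphase-promoting complex, was at 29.8 and 60.2 and elsewhere in experiment 2 at 5.69 or less (3.50 ± 0.62, adjusted p = 6.87e-04). The monocyte libraries and the rest did not overlap for these genes.

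Nusap1, a spindle protein, was at 24.7 and 56.0 in monocytes (log2 fold change 3.16 ± 0.82, adjusted p = 0.0118), and Hmmr, which acts at spindle poles, at 23.9 and 39.1 (3.10 ± 0.95, adjusted p = 0.0302). Top2a, the topoisomerase that untangles replicated chromosomes, was at 97.2 and 176, against 37.2 or less in the others of experiment 2 (3.03 ± 0.50, adjusted p = 3.76e-04). Cdca3 was at 222 and 272, against 59.3 or less (3.02 ± 0.63, adjusted p = 0.00240). These 4 genes likewise had both monocyte libraries above all others of the experiment.

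Ccnb2, the cyclin that activates CDK1 in mitosis, was at 191 and 231 in monocytes and at 46.8 or less in all other libraries of the series (log2 fold change 2.95 ± 0.55, adjusted p = 0.00102). Birc5 was at 79.7 and 126, with 29.9 or less in the others of experiment 2 (2.44 ± 0.60, adjusted p = 0.00868), and Cdk1 at 40.1 and 84.4, with 20.2 or less (1.93 ± 0.53, adjusted p = 0.0158). The margin was narrower for Mki67, the Ki-67 antigen used to count dividing cells, with 85.1 and 178 against 19.2 to 55.6 in the others (1.55 ± 0.46, adjusted p = 0.0243). Ube2c, the ubiquitin-conjugating enzyme of the anaphase-promoting complex, overlapped: 106 and 206 in monocytes, 160 and 50.6 in neutrophils and 14.03 to 82.2 in the macrophages (1.67 ± 0.54, adjusted p = 0.0412).

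The mitotic genes not called in monocytes were Ccnb1, Cdc25b, Aurka, Kif23, Prc1 and Ect2. Kif23, a kinesin of the central spindle, had its highest value in Kupffer replicate 2, at 92.9, with 42.6 and 73.7 in monocytes. Of the 23 calls, 7 held in each of the 18 fits that left out 1 library (Ccnb2, Cdc20, Cdca8, Cenpa, Racgap1, Stmn1 and Top2a). The other 16 were lost without monocytes replicate 2, of which Cdca3, Cdk1, Aurkb and Plk1 without it alone, and Birc5, Mki67, Nusap1, Hmmr and Ube2c also without replicate 1. Hmmr was further lost without neutrophil replicate 1, spleen replicate 2 or lung replicate 2, and Ube2c without 10 different libraries. With the 3 macrophage populations of experiment 2 as the only partners, an alternative chosen after seeing the data, the mitotic median in monocytes was 2.53.

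Markers of other cells were read in the same libraries. Of the 10 markers of granulocyte and myeloid precursors, 7 were tested and 4 called higher in monocytes, with a summed level of 1167 and 1635 in monocytes, 3628 and 2811 in neutrophils and 140 to 564 in the macrophages of experiment 2. Mpo, the myeloperoxidase of precursors, was at 77.1 and 104 and Ctsg, a granule protease, at 92.1 and 141 in monocytes. In the macrophages of experiment 2 they were at 24.8 and 5.84 or less, in that order. Kit and Gfi1 were at 0 in both monocyte libraries, and Cd34 at 4.26 and 6.14. The 7 neutrophil markers summed to 1719 and 1188 in monocytes and to 216293 and 272252 in neutrophils. Erythroid RNA, over 9 genes, summed to 5374 and 8467 in monocytes and to 391 to 20998 in the macrophages of experiment 2, and 0 of the 9 genes were called higher in monocytes. The part of such cells in the mitotic levels was not tested.

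In microglia, 18 of 29 mitotic genes were called lower and 0 higher, also at an unadjusted p under 0.05 (limma), where 22 were lower. The median log2 fold change was -2.48, and -1.71 with genes at 0 in both libraries of a population set to the limit of 3 reads. Called lower in microglia were 15.2% of all genes. Of the 30 genes, 12 were listed at 0 in both microglia libraries: Mki67, Ccnb2, Cdc20, Birc5, Aurkb, Bub1, Bub1b, Kif11, Kif20a, Kif23, Prc1 and Hmmr. All 30 together rested on 57 and 30 reads. Mki67 was at 3.78 and 5.42 in peritoneal macrophages, 67.7 and 23.1 in the small intestine and 51.3 and 26.8 in the large intestine, and Ccnb2 at 0 and 5.42, 21.9 and 26.6, and 29.5 and 29.1 in the same order.

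Among genes not at 0 in both microglia libraries, the calls with the lowest log2 fold changes were Cdca3 at 0 and 0.927 normalised reads (-3.87 ± 0.65, adjusted p = 2.02e-04), Cdk1 at 0 and 1.85 (-3.53 ± 0.54, adjusted p = 8.72e-05) and Ube2c at 1.88 and 0 (-3.24 ± 0.56, adjusted p = 2.88e-04). Stmn1, a microtubule destabilizer, was the best measured, at 14.1 and 7.11, with 53.1 to 90.8 in the intestine (-1.71 ± 0.38, adjusted p = 0.00235), and was lost without microglia replicate 2. In all, 12 of the 18 calls held without any single library. The exceptions in this group are Cdc20, Ccna2, Plk1, Racgap1, Stmn1 and Tpx2, each lost without at least 1 of the microglia libraries. Among the calls that held, Mki67, Ccnb2, Birc5, Aurkb, Bub1b and Kif23 were at 0 in both microglia libraries. Leaving out 1 of these libraries does not change such a mean, so it tests these calls little.

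In the small intestine 9 and in the large intestine 10 of 29 mitotic genes were called higher and 0 lower, at medians of 1.41 and 1.56. Among all genes 6.24% and 7.09% were called higher, and 1.81% and 2.13% lower. Mki67 had log2 fold changes of 2.72 ± 0.47 (adjusted p = 9.98e-04) and 2.59 ± 0.47 (adjusted p = 0.00115), Birc5 of 2.51 ± 0.62 (adjusted p = 0.0148) and 2.82 ± 0.62 (adjusted p = 0.00594), and Ccnb2 of 2.49 ± 0.57 (adjusted p = 0.00866) and 2.85 ± 0.57 (adjusted p = 0.00251), in that order. Birc5 was at 37.6 and 17.9 in the small and 45.4 and 20.6 in the large intestine, at 0 and 7.22 in peritoneal macrophages and at 0 in both microglia libraries. These values separate the intestinal libraries from the other 4 of the experiment.

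None of the mitotic calls in the intestine held in all 18 fits. In the small intestine the 9 were lost without its replicate 3, and all but Mki67 and Stmn1 without its replicate 4, among other libraries for Aurkb, Bub1b and Kif23. In the large intestine Birc5, Ccnb2 and Mki67 were lost without its replicate 2, Stmn1 without its replicate 3, and the others without more than 1 library. Small intestine replicate 3 held the higher mitotic sum and also the higher sum of the 9 intestinal epithelium markers, 1619 against 546 in replicate 4. That sum was 2471 and 2224 in the large intestine, 9.45 to 19.9 in peritoneal macrophages and microglia, and all 8 of the epithelial markers tested were called higher in the small intestine. Epcam, which defines epithelium, was at 83.1 and 10.6 in the small and 87.2 and 77.9 in the large intestine, while the stem cell marker Lgr5 was at 3.32 or less. Markers of B and plasma cells, over 8 genes, summed to 508 and 1321 in the small and 121 and 182 in the large intestine. They summed to 19.5 to 251 in peritoneal macrophages and microglia. Dendritic cell markers, over 6 genes, summed to 69.6 and 84.3, 210 and 203, and 0 to 16.7 in the same order. Of the monocyte markers, Ccr2 and Ly6c2 were called higher in both intestinal populations and Fn1 lower in the small intestine. The part of epithelial or other cells in the mitotic levels was not tested.

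**Figure D4:**
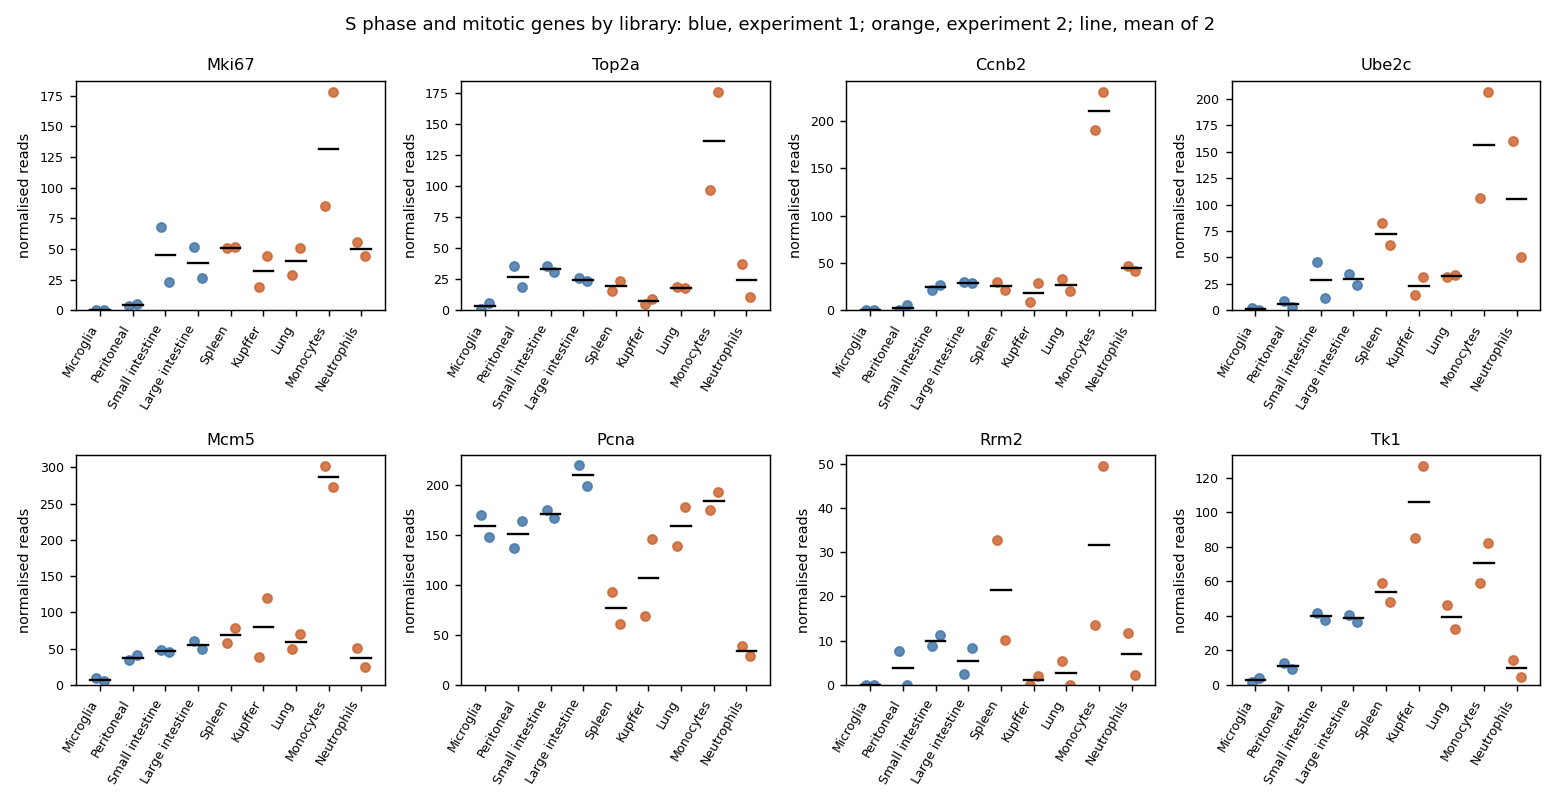
Normalised reads (y axes, each panel with its own scale) of Mki67, Top2a, Ccnb2, Ube2c, Mcm5, Pcna, Rrm2 and Tk1 in each population (x axis). Points are libraries, blue for experiment 1 and orange for experiment 2, and lines are means; Pcna stands at 148 to 171 in microglia, where Ccnb2 is at 0, and Tk1 is highest in Kupffer cells.

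Peritoneal macrophages had 2 of 29 mitotic genes called higher and 2 lower, against 7% and 14.4% of all genes, at a median of -0.68. The higher ones were Cdk1, with 41.6 and 16.2 (1.68 ± 0.54, adjusted p = 0.0321), and Cenpa, with 41.6 and 51.5 (1.49 ± 0.39, adjusted p = 0.00927). Stmn1 was at 7.77 and 9.93 (-1.95 ± 0.38, adjusted p = 9.48e-04) and Ccnb2 at 0 and 5.42 (-1.82 ± 0.57, adjusted p = 0.0266). The kinase Cdk1 and its cyclin Ccnb2 thus stood on opposite sides of the mean of the other populations. That mean includes microglia, where Cdk1, Cenpa, Stmn1 and Ccnb2 were each called lower. The Cdk1 call was lost without peritoneal replicate 1 and without microglia replicate 1, large intestine replicate 2 or either small intestine library, Cenpa without peritoneal replicate 2, and Ccnb2 without peritoneal replicate 1 or small intestine replicate 4.

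Kupffer cells had 7 mitotic genes called lower and 0 higher, also 0 at an unadjusted p under 0.05 (limma), at a median of -1.27. Among all genes 6.97% were called lower and 9.47% higher in Kupffer cells. The partners there include monocytes, where 23 mitotic genes were called higher. Cdca8 was at 2.08 and 8.08 normalised reads (-2.65 ± 0.54, adjusted p = 0.00172), Cdca3 at 4.16 and 28.3 (-2.37 ± 0.63, adjusted p = 0.0119) and Top2a at 5.20 and 9.08 (-2.02 ± 0.50, adjusted p = 0.00768). The summed mitotic level was 198 in replicate 1 and 521 in replicate 2, a wider gap than that over the 4 libraries of lung and spleen, and all 7 calls were lost without replicate 1. Replicate 1 also held more of the neutrophil markers, 1620 against 170 in replicate 2, and more erythroid RNA, 11031 against 5524. Their part in the lower levels was not tested. The other 4 calls (Cenpa, Stmn1, Ube2c and Ccnb2) were lost also with equal library totals.

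Lung macrophages had 2 mitotic genes called lower, the cyclin Ccna2 (16.4 and 1.11, log2 fold change -2.03 ± 0.70, adjusted p = 0.0483) and Cenpa (21.5 and 29.9, -1.30 ± 0.38, adjusted p = 0.0192), and spleen macrophages 1, Stmn1 (40.7 and 20.0, -1.10 ± 0.37, adjusted p = 0.0439). None was higher in either, and at an unadjusted p under 0.05 (limma) 3 were higher in lung and 0 in spleen. Among all genes 8.8% were called lower in lung and 6.12% in spleen, shares above those of the mitotic genes. Monocytes, with 23 mitotic genes called higher, are among the partners of both. Cenpa was lost without either lung library and the other 2 without 10 or more different libraries, 1 at a time, among them lung replicate 2 and spleen replicate 2, and all 3 were lost with equal library totals. Bub1b, a kinase-like protein of the spindle checkpoint, was at 41.7 and 31.0 in lung and 29.0 and 62.1 in monocytes, and at 14.9 or less in the other libraries of experiment 2, but was not called in lung (log2 fold change 1.59 ± 0.59, adjusted p = 0.0684).

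Neutrophils had 0 mitotic genes called higher, also 0 at an unadjusted p under 0.05 (limma), and 2 lower, at a median of -0.20, with -0.24 for all genes. Called higher and lower among all genes were 15% and 20.2%, shares above those of the mitotic genes. Bub1b was at 5.51 and 2.20 (-2.15 ± 0.59, adjusted p = 0.00773) and Melk, a kinase, at 4.13 and 0 (-1.74 ± 0.67, adjusted p = 0.0478). Both were lost without neutrophil replicate 3 and with quantile normalization, and Melk without 12 other libraries. Mki67 was at 55.6 and 44.7, within the range of spleen, Kupffer cells and lung, and Ccnb2 at 46.8 and 41.8, above them. With all libraries scaled to equal totals the mitotic median was -0.84 and that of all genes -0.86. With the 3 macrophage populations as the only partners, the mitotic median was 0.47, and with quantile normalization 0.12. Neutrophil replicate 1 held more of both the mitotic and the S phase genes than replicate 3, and also more erythroid RNA (25446 against 7510 over 9 genes), more Mpo (431 against 24.2) and more of the 10 precursor markers (3628 against 2811), none of which was at 0 in both libraries. The part of such cells was not tested.

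The S phase genes had medians nearer to 0 than the mitotic genes in monocytes and microglia. In monocytes 6 of 10 were called higher and 0 lower, at a median of 1.49, and 7 were higher and 0 lower at an unadjusted p under 0.05 (limma). The share of all genes called higher there was 6.34%. Mcm5 was at 302 and 272 normalised reads, and at 120 or less in all other libraries (2.34 ± 0.38, adjusted p = 2.87e-04). Mcm6, of the same helicase, was at 156 and 146, and at 60.5 or less elsewhere (2.23 ± 0.42, adjusted p = 0.00114). Both helicase genes thus separated monocytes from the other 16 libraries, and both calls held without any single library.

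Rrm1, the large subunit of ribonucleotide reductase, was at 96.3 and 150 in monocytes (1.76 ± 0.43, adjusted p = 0.00833), Mcm7 at 142 and 248 (1.65 ± 0.50, adjusted p = 0.0289), Mcm3 at 102 and 99.7 (1.23 ± 0.32, adjusted p = 0.0110) and Pcna at 175 and 193 (1.20 ± 0.26, adjusted p = 0.00386). These 4 calls were lost without monocytes replicate 2, those of Mcm3 and Mcm7 also without replicate 1, and that of Mcm7 without neutrophil replicate 3, spleen replicate 1 or lung replicate 2 as well. Mcm2, Mcm4, Rrm2 and Tyms were not called. Mcm2 was at 26.9 and 37.9 in monocytes and 27.98 and 49.8 in spleen, and Rrm2, the small subunit of the reductase, at 13.6 and 49.5 and at 32.9 and 10.2, so monocytes and spleen overlapped.

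In microglia 3 of 10 S phase genes were called lower and 0 higher, also 0 at an unadjusted p under 0.05 (limma), at a median of -0.48. The share of all genes called lower there was 15.2%. Mcm5 was at 9.40 and 4.64, against 34.0 to 60.1 in the rest of experiment 1 (-2.59 ± 0.39, adjusted p = 7.00e-05). Mcm6 was at 13.2 and 3.71, against 33.9 to 60.5 (-2.32 ± 0.44, adjusted p = 5.96e-04), and Mcm7 at 5.64 and 32.0, against 17.6 to 98.4 (-1.94 ± 0.52, adjusted p = 0.00872, lost without microglia replicate 1). Other S phase genes were at the level of the neighbouring populations: Pcna was at 171 and 148, within the 137 to 220 of the rest, and Mcm3 at 41.3 and 36.2, within 30.7 to 59.7. Rrm2 was listed at 0 in both.

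Peritoneal macrophages had 2 S phase genes called lower and 0 higher: Tyms, at 0 and 0.451 normalised reads with 4.17 to 14.7 in the rest of experiment 1 (-2.99 ± 0.72, adjusted p = 0.00521), and Mcm2, at 1.59 and 5.19 with 8.76 to 26.6 (-2.18 ± 0.53, adjusted p = 0.00526). Both were lost without peritoneal replicate 1, and at an unadjusted p under 0.05 (limma) 1 gene was higher. The 2 peritoneal libraries lay below all others of the experiment for both genes. Called lower in peritoneal macrophages were 14.4% of all genes.

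No S phase gene was called in the small intestine, the large intestine, spleen, Kupffer cells or lung. At an unadjusted p under 0.05 (limma), 3, 3, 2, 1 and 1 were higher and 0, 0, 0, 3 and 0 lower, in that order. The medians were 0.76, 0.73, 0.45, -0.58 and -0.22. Pcna was at 175 and 167 in the small and 220 and 200 in the large intestine, whose values do not overlap, and Mcm5 at 47.7 and 45.8, and 60.1 and 50.0.

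In neutrophils 6 of 10 S phase genes were called lower and 0 higher, also at an unadjusted p under 0.05 (limma). Among all genes 20.2% were called lower in neutrophils. The partners include monocytes, where the same 6 genes were called higher. Mcm3 was at 19.3 and 6.59 normalised reads, against 57.8 to 102 in the rest of experiment 2 (-2.56 ± 0.32, adjusted p = 3.72e-06). Pcna was at 38.6 and 28.6, against 60.6 to 193 (-1.84 ± 0.26, adjusted p = 2.19e-05). Both genes had neutrophils below every other library of the series, and both calls held without any single library. Mcm7 (-1.73), Mcm6 (-1.45), Rrm1 (-1.39) and Mcm5 (-1.39), with adjusted p up to 0.0158, were lost without neutrophil replicate 3. The S phase genes of that replicate rested on 52 reads, and those of replicate 1 on 199.

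The 4 other replication genes followed the S phase genes in part. Tk1, the thymidine kinase of S phase, was at 85.2 and 127 in Kupffer cells, the highest of all populations (1.61 ± 0.39, adjusted p = 0.00713, lost without Kupffer replicate 2), and at 14.5 and 4.40 in neutrophils (-2.77 ± 0.39, adjusted p = 1.95e-05). It was at 1.88 and 3.71 in microglia (-2.81 ± 0.41, adjusted p = 4.56e-05), 12.6 and 9.03 in peritoneal macrophages and 36.4 to 41.8 in the intestine, where it was called higher in both populations (1.75 and 1.70, adjusted p of 0.00986 and 0.0102), lost without either of the population's own libraries. Monocytes were at 58.8 and 82.1 and below Kupffer cells. Kupffer cells thus had the highest Tk1 beside 7 mitotic genes called lower.

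Cdc45, of the active helicase, was at 14.5 and 18.4 in monocytes (2.76 ± 0.70, adjusted p = 0.0105, lost without either monocyte library) and at 7.07 or less elsewhere. Cdc6, which loads the helicase, was at 26.9 and 12.3 (2.92 ± 0.71, adjusted p = 0.00756, lost without monocytes replicate 1) and at 9.03 or less. Uhrf1, which binds hemimethylated DNA behind the fork, was at 29.0 and 25.7 in monocytes and 15.7 or less elsewhere, and was not called.

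The G1 cyclins and kinases gave another order of populations. Ccnd1 (cyclin D1) was at 210 and 232 in spleen macrophages, at 178 and 160 in Kupffer cells, and at 17.1 and 2.21 in lung, 2.56 and 5.37 in monocytes and 22.0 and 13.2 in neutrophils. In experiment 1 it was between 90.9 and 156 in all libraries, microglia included, at 127 and 133. It was called higher in spleen (3.59 ± 0.42, adjusted p = 8.52e-06) and Kupffer cells (3.10 ± 0.42, adjusted p = 3.68e-05) and lower in lung (-2.46 ± 0.42, adjusted p = 3.31e-04) and monocytes (-3.30 ± 0.42, adjusted p = 2.47e-05).

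Ccnd2 (cyclin D2) was at 762 and 808 in spleen, 540 and 718 in lung, 380 and 348 in the small and 304 and 266 in the large intestine. Kupffer cells held 50.9 and 86.8, neutrophils 38.6 and 33.0, monocytes 10.2 and 9.21, peritoneal macrophages 1.26 and 8.12 and microglia 0 and 0.927. In this order of levels no 2 neighbouring populations overlapped. The lowest 2 are hardly separated, as 1.26 in peritoneal replicate 1 and 0.927 in microglia replicate 2 are 1 read each, under the limit of 3 reads. It was called higher in spleen (3.62 ± 0.38), lung (3.20 ± 0.38) and both intestinal populations (4.85 ± 0.39 in the small, 4.38 ± 0.39 in the large), with adjusted p of 6.36e-06 or less, and lower in microglia (-5.71 ± 0.39, adjusted p = 4.05e-09), peritoneal macrophages (-3.53 ± 0.39, adjusted p = 2.37e-06), monocytes (-4.11 ± 0.38, adjusted p = 7.90e-07) and neutrophils (-1.90 ± 0.38, adjusted p = 6.26e-04).

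Ccnd3 (cyclin D3) was at 2682 and 2606 in neutrophils and 561 and 787 in monocytes, and at 24.6 to 258 in the macrophages. In neutrophils its log2 fold change was 3.77 ± 0.23 (adjusted p = 9.46e-10) and in monocytes 1.28 ± 0.23 (adjusted p = 6.66e-04, lost without monocytes replicate 2). In peritoneal macrophages, at 222 and 258, it was called higher (2.05 ± 0.23, adjusted p = 2.84e-06), and in microglia, at 27.7 and 24.6, lower (-2.14 ± 0.23, adjusted p = 1.64e-06). Spleen, Kupffer cells and lung were called lower (-1.24, -2.59 and -1.22, adjusted p of 6.98e-04 or less), but the partners there include the neutrophils, and with macrophages as the only partners spleen and lung had 0.53 and 0.56. The lung call was lost without lung replicate 2. All other calls of the 3 D-type cyclins named here held without any single library.

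**Figure D5:**
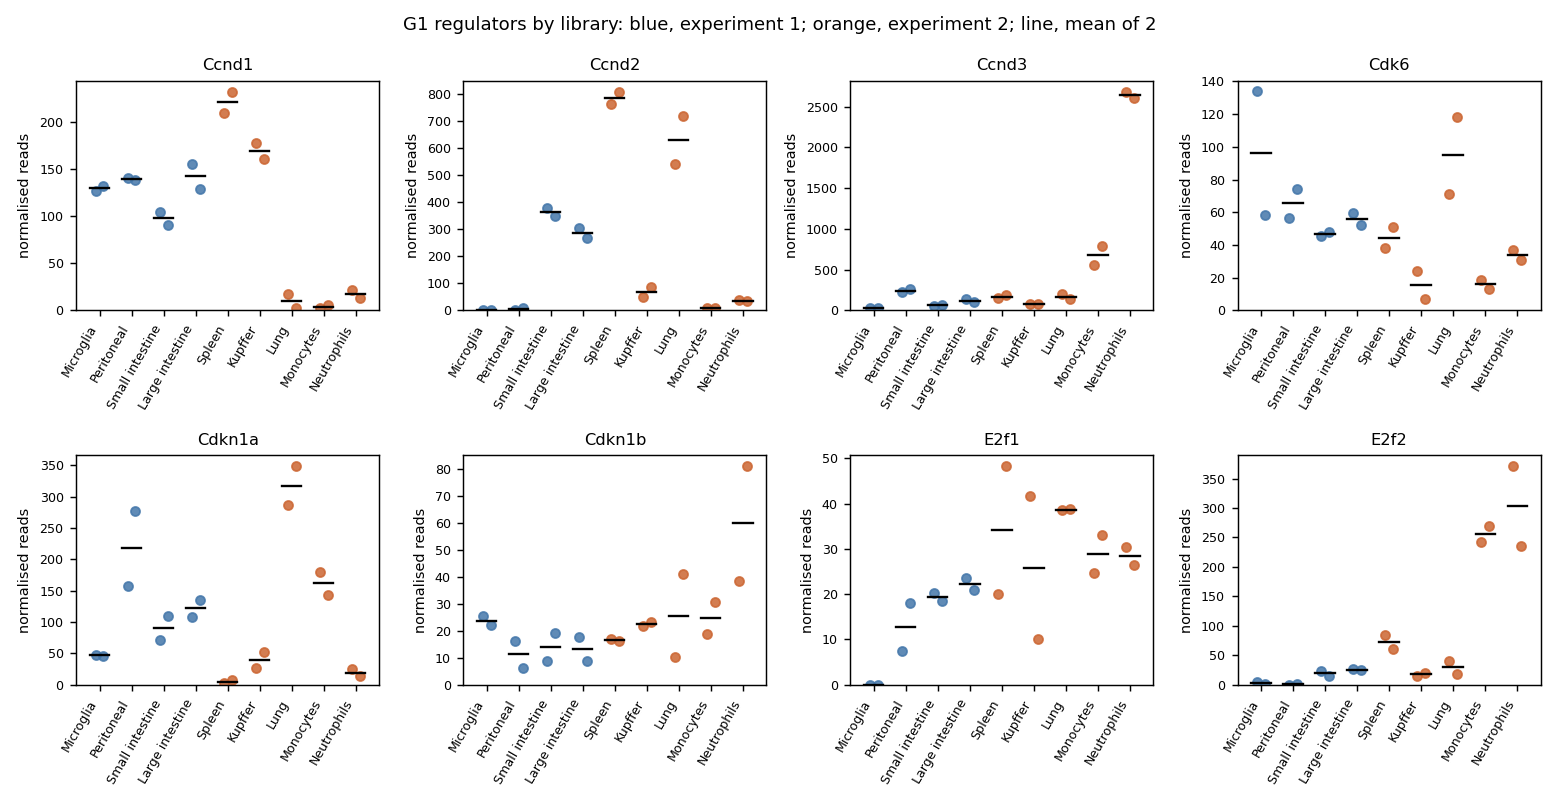
Normalised reads (y axes, each panel with its own scale) of Ccnd1, Ccnd2, Ccnd3, Cdk6, Cdkn1a, Cdkn1b, E2f1 and E2f2 in each population (x axis). Points are libraries, blue for experiment 1 and orange for experiment 2, and lines are means; Ccnd1 and Ccnd2 are both high in spleen, Ccnd2 without Ccnd1 in lung, Ccnd1 without Ccnd2 in microglia and peritoneal macrophages, and Ccnd3 reaches 2682 in neutrophils.

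Cdk4, the partner kinase of D-type cyclins, was at 149 and 186 in monocytes (1.13 ± 0.28, adjusted p = 0.00828) and 59.3 and 28.6 in neutrophils (-1.36 ± 0.28, adjusted p = 7.25e-04), and between 59.8 and 191 in the macrophages, microglia at 106 and 125. Cdk6, the other partner, was at 71.4 and 118 in lung (1.91 ± 0.39, adjusted p = 0.00163), 23.9 and 7.07 in Kupffer cells (-1.47 ± 0.39, adjusted p = 0.0123) and 18.8 and 13.04 in monocytes (-1.18 ± 0.39, adjusted p = 0.0431). The microglia libraries held 134 and 58.4, and Cdk6 was not called there. Both calls of Cdk4 were lost without neutrophil replicate 3, and that in monocytes also without either monocyte library. Those of Cdk6 were lost without lung replicate 2 in lung and without Kupffer replicate 2 in Kupffer cells, and that in monocytes without any of 14 libraries and under both other scalings.

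Cdk2, the kinase of cyclins E and A, was at 13.2 and 15.9 in microglia, above every other library of the series (2.31 ± 0.56, adjusted p = 0.00503, lost without microglia replicate 2), and at 0 and 0.953 in peritoneal macrophages (-2.18 ± 0.56, adjusted p = 0.00875, lost without peritoneal replicate 1 and with quantile normalization). In lung it was at 0.632 and 2.21 (-1.64 ± 0.55, adjusted p = 0.0404, lost without any of 6 libraries, both of lung included, and with equal library totals). Ccne1 and Ccne2, the cyclins E, were listed at 0 in all 4 libraries of microglia and peritoneal macrophages. Ccne2 was at 9.38 and 16.9 in monocytes (2.52 ± 0.52, adjusted p = 0.00244, lost without monocytes replicate 2), 9.43 and 3.49 in the large intestine (2.37 ± 0.54, adjusted p = 0.00712, lost without large intestine replicate 2) and 0 in both spleen libraries. Microglia had the highest Cdk2, with both E-type cyclins listed at 0 there as in peritoneal macrophages. These cyclins were low in all populations: Ccne1 was at 0 in 5 and Ccne2 in 7 of the 18 libraries, and their highest values were 23.8 and 16.9.

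Of the CDK inhibitors, Cdkn1a, which p53 induces, was at 287 and 349 in lung, 180 and 143 in monocytes, 26.0 and 51.5 in Kupffer cells, 24.8 and 13.2 in neutrophils and 2.99 and 7.30 in spleen. No 2 neighbours in this order overlapped, and the nearest values were those of Kupffer cells and neutrophils. It was called higher in lung (3.46 ± 0.34, adjusted p = 7.52e-07) and monocytes (2.25 ± 0.34, adjusted p = 1.67e-04), and lower in spleen (-3.73 ± 0.34, adjusted p = 4.58e-07) and neutrophils (-1.59 ± 0.34, adjusted p = 0.00117, lost without neutrophil replicate 3). In experiment 1 it was at 158 and 278 in peritoneal macrophages (1.38 ± 0.35, adjusted p = 0.00809, lost without peritoneal replicate 2), 71.3 to 135 in the intestine and 47.9 and 46.4 in microglia (-1.45 ± 0.35, adjusted p = 0.00492, lost without microglia replicate 2). Lung and monocytes share high Cdkn1a and low Ccnd1, and spleen holds the reverse. This opposition did not extend to all populations. Neutrophils were low in both genes, and peritoneal macrophages had Cdkn1a called higher while Ccnd1 was not called there.

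Cdkn1b, an inhibitor of cyclin E and CDK2, was at 38.6 and 81.3 in neutrophils and between 6.32 and 41.0 in the other libraries (1.39 ± 0.52, adjusted p = 0.0399). The neutrophil call was lost without any of 8 libraries, neutrophil replicate 3 among them, and under both other scalings. Cdkn2c, an inhibitor of CDK4 and CDK6, was at 14.6 or less throughout and was not called against the other populations of an experiment.

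E2f1 and E2f2, activators of S phase genes, differed in pattern. E2f1 was listed at 0 in both microglia libraries, where it was called lower (adjusted p = 1.16e-05), and was at 7.56 and 18.1 in peritoneal macrophages, 18.6 to 23.6 in the intestine and 10.1 to 48.2 in experiment 2, where it was called in no population. In the large intestine it was called higher (1.81 ± 0.52, adjusted p = 0.0307), lost without any of 5 libraries, large intestine replicates 2 and 3 among them. E2f2 was at 371 and 235 in neutrophils (2.39 ± 0.40, adjusted p = 1.07e-04) and 243 and 270 in monocytes (2.14 ± 0.40, adjusted p = 0.00103), which overlap, and at 84.7 or less in every macrophage library.

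Kupffer cells (15.6 and 20.2, -2.58 ± 0.40, adjusted p = 1.30e-04) and lung (41.1 and 18.8, -1.80 ± 0.40, adjusted p = 0.00312, lost without lung replicate 2) were called lower in E2f2 against partners that include monocytes and neutrophils. In experiment 1 E2f2 was at 0 and 0.903 in peritoneal macrophages (-3.11 ± 0.41, adjusted p = 1.80e-05), 4.70 and 1.85 in microglia (-1.15 ± 0.41, adjusted p = 0.0431, lost without any of 9 libraries, microglia replicate 2 among them, and with equal library totals), and 15.3 to 25.9 in the intestine, called higher in the small (1.86 ± 0.41, adjusted p = 0.00680, lost without small intestine replicate 3) and large intestine (2.40 ± 0.41, adjusted p = 6.65e-04). E2f8, a repressor that acts late in S phase, was at 18.8 and 27.6 in monocytes (2.50 ± 0.60, adjusted p = 0.00685, lost without monocytes replicate 2) and listed at 0 in microglia and peritoneal macrophages.

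Small and large intestine macrophages differed in none of these genes: 0 of 57 were called higher and 0 lower in the small intestine (limma, BH), with 0.414% and 0.77% of all genes, and at an unadjusted p under 0.05 there were 0 higher and 2 lower. The medians were -0.04 for S phase genes and 0.09 for mitotic genes. Ccnd3 was at 52.8 and 68.0 in the small and 137 and 96.8 in the large intestine, without overlap, at a log2 fold change of -0.93 ± 0.29 (adjusted p = 0.192). A p above the threshold does not show that these populations were alike.

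Monocytes against neutrophils, both of the bone marrow, had 25 genes called higher and 3 lower, against 12.2% and 11.3% of all genes. Of the S phase genes 6 of 10 and of the mitotic genes 13 of 29 were higher and 0 of either lower, also 0 at an unadjusted p under 0.05 (limma), with medians of 2.47 and 2.19. Mcm3 had a log2 fold change of 3.03 ± 0.40 (adjusted p = 2.00e-05), Mcm5 of 2.99 ± 0.48 (adjusted p = 1.51e-04), Pcna of 2.43 ± 0.33 (adjusted p = 3.13e-05) and Cdkn1a of 3.07 ± 0.43 (adjusted p = 4.16e-05), from the levels given above. Cdc20 (3.39 ± 0.79, adjusted p = 0.00364), Melk (3.29 ± 0.85, adjusted p = 0.00792) and Bub1b (3.22 ± 0.75, adjusted p = 0.00370) were the mitotic genes with the largest differences, and Ccnd3 (-1.99 ± 0.29, adjusted p = 4.90e-05), Ccnd1 (-1.90 ± 0.53, adjusted p = 0.0135) and Ccnd2 (-1.77 ± 0.48, adjusted p = 0.0114) the genes called lower. Ccnd1 was near the bottom of its range over experiment 2 in both populations.

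Of these 25 calls, 8 held without any single library: Mcm3, Mcm5, Mcm6, Pcna, Tk1, Cdk4, Cdkn1a and Stmn1. The count of 25 became 12 without neutrophil replicate 3, 15 without monocytes replicate 1 and 10 without monocytes replicate 2, and the 3 became 1 without neutrophil replicate 1 or monocytes replicate 1. Cdc20 and Bub1b were lost without monocytes replicate 2, Melk also without neutrophil replicate 3, Ccnd1 without neutrophil replicate 1 or monocytes replicate 1, and Ccnd2 without any of the 4 libraries of both populations. With equal library totals the counts were 40 higher and 1 lower, and the share of higher calls among all called genes was 83.0% under that scaling and 51.9% without it. With quantile normalization the call of Ccnd3 was lost.

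Lists of further genes of the same processes were counted in the same comparisons. Of 36 further mitotic genes, all tested, 22 were called higher in monocytes (6.34% of all genes were) and 0 lower, and 1 higher and 11 lower in microglia (10.7% and 15.2% of all genes). Espl1 (separase, which cuts cohesin) had a log2 fold change of 3.49 ± 0.64 in monocytes (adjusted p = 8.77e-04), Foxm1 (the transcription factor of G2 genes) 3.40 ± 0.63 (adjusted p = 9.91e-04) and Spc24 (of the kinetochore) 3.04 ± 0.72 (adjusted p = 0.00632, lost without either monocyte library). The 22 became 4 without monocytes replicate 2. In microglia, Ncapd2, of condensin, was at 0 and 0.927 (-3.07 ± 0.56, adjusted p = 4.38e-04), while Spc25, of the kinetochore (adjusted p = 0.00105), and Cenpm, of the centromere (adjusted p = 0.00167), were listed at 0. Ncaph, another condensin gene, was called higher there, at 50.7 and 44.5 (2.25 ± 0.53, adjusted p = 0.00364). These 4 calls held without any single library, and the 11 became 6 without microglia replicate 1. For Spc25 and Cenpm, leaving out a microglia library does not change a microglia mean at 0. The small intestine had 4 higher (0 without its replicate 3), the large intestine 2 higher (0 without its replicate 2), peritoneal macrophages 1 higher and 3 lower (0 without peritoneal replicate 2), Kupffer cells 2 lower, lung 3 lower (1 without lung replicate 2), spleen 0, and neutrophils 1 higher (Hmgb2, a chromatin protein, 2.22 ± 0.31, adjusted p = 1.83e-05). Spleen had 4 higher and 4 lower at an unadjusted p under 0.05 (limma). Of all genes, 6.24% were called higher in the small intestine, 7.09% in the large intestine, 7% in peritoneal macrophages and 15% in neutrophils. Called lower were 14.4% in peritoneal macrophages, 6.97% in Kupffer cells and 8.8% in lung.

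Of 36 genes of origins and forks, 35 were tested. In monocytes 8 were called higher (6.34% of all genes were) and 0 lower, led by Mcm10 (2.89 ± 0.66, adjusted p = 0.00530), which acts in origin firing, Cdt1 (2.31 ± 0.54, adjusted p = 0.00615), which loads the helicase, and Pole (2.14 ± 0.63, adjusted p = 0.0241), the leading strand polymerase. All 8 were lost without monocytes replicate 1. In neutrophils 1 was higher and 8 lower, where 20.2% of all genes were lower, a share near that of the list. Among the 8 was Pole, listed at 0 in both libraries (adjusted p = 1.76e-04), and the 8 became 3 without neutrophil replicate 3. Microglia had 7 lower and 0 higher, where 15.2% of all genes were lower, and 2 lower without microglia replicate 1. Peritoneal macrophages had 3 lower (0 without peritoneal replicate 1), and lung 0 in either direction, where 0 were higher and 1 lower at an unadjusted p under 0.05 (limma). The small intestine had 1 higher (Gins2, lost without any of 13 libraries) and the large intestine 1 (Chaf1b, lost without any of 9). Spleen had 1 lower (Prim2, lost without spleen replicate 2) and Kupffer cells 1 (Dut, lost without either Kupffer library), so each of these counts became 0. In monocytes against neutrophils 14 of the origin and fork genes and 12 of the further mitotic genes were higher and 0 lower, and these became 5 and 2 without neutrophil replicate 3. Of all genes, 12.2% were higher and 11.3% lower there. Against the other populations, 14.4% of all genes were lower in peritoneal macrophages, 6.12% in spleen and 6.97% in Kupffer cells. Higher were 6.24% in the small and 7.09% in the large intestine.

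Of 19 genes of the restriction point, all tested, neutrophils had 3 called higher and 4 lower, where 15% and 20.2% of all genes were, and these became 1 and 1 without neutrophil replicate 3. Trp53, which encodes p53, was among the 4, at 4.13 and 0 in neutrophils (-3.22 ± 0.60, adjusted p = 3.30e-04), and Tfdp1, the dimer partner of E2F, among the 3, at 53.1 and 71.1 (2.79 ± 0.67, adjusted p = 0.00277, lost without neutrophil replicate 3). Microglia had 2 higher and 0 lower (10.7% and 15.2% of all genes) and peritoneal macrophages 3 and 1 (7% and 14.4%). Kupffer cells had 1 and 2 (9.47% and 6.97%), lung 0 and 3 (8.99% and 8.8%) and monocytes 2 and 0 (6.34% and 9.28%). Spleen had 0 and 1 (10% and 6.12%) and the small intestine 0 and 1 (6.24% and 1.81%). The large intestine had 0 in both directions (7.09% and 2.13%), with 0 higher and 1 lower at an unadjusted p under 0.05 (limma). Without 1 library the counts of microglia became as few as 1 and 0, peritoneal macrophages 1 and 0, Kupffer cells 0 and 1, lung 0 and 1, and monocytes, spleen and the small intestine 0 in both directions. Among the libraries whose absence gave these lows were microglia replicate 1 (for microglia and the small intestine), peritoneal replicate 1, lung replicate 2, monocytes replicate 2 and spleen replicate 1. For Kupffer cells they included Kupffer replicate 2 for the higher and neutrophil replicate 1 for the lower gene. Other libraries mattered too. Cdkn2d in the small intestine was lost without any of 5 libraries, both of its own included. Lin9 in Kupffer cells was lost without any of 6, and Cdkn1c in spleen without either spleen library. All peritoneal calls were lost without peritoneal replicate 2, but a count can hold genes not called with all libraries. E2f3 was at 49.8 and 51.0 in microglia and at 8.82 or less in all other libraries (3.40 ± 0.58, adjusted p = 2.54e-04), in the population where E2f1 was at 0. Cdkn2d, an inhibitor of CDK4 and CDK6, was at 254 and 260 in neutrophils (3.43 ± 0.39, adjusted p = 1.46e-06) and 85.5 and 111 in monocytes (1.70 ± 0.39, adjusted p = 0.00526, lost without monocytes replicate 2), and at 27.1 or less in the macrophages. Cdkn2b, a related inhibitor, was at 49.1 and 56.0 in peritoneal macrophages (2.05 ± 0.58, adjusted p = 0.0149, lost without either peritoneal library). E2f7, the partner of E2f8, was at 7.67 and 6.90 in monocytes (2.48 ± 0.58, adjusted p = 0.00623, lost without either monocyte library) and 0 in both libraries of microglia, peritoneal macrophages, Kupffer cells and neutrophils.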

How the data were processed

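Messenger RNA was sequenced from 18 libraries of sorted myeloid cells, 2 for each of 9 populations, grouped by the labels. Per the labels' protocols, RNA of sorted cells was captured on oligo(dT), indexed at reverse transcription, pooled, amplified by in vitro transcription and fragmented. The submitters' processing notes name TopHat and the mm9 build. Not given in the sources used here are its version and how reads were counted, annotated and normalised. The deposited values are normalised reads per transcript, a signal and not counts: between 86.6% and 88.9% of values of a library were whole multiples of 1 read (within 0.01 read), so no count model was used. Amplification and an unstated normalization limit what the values say of total RNA. They also limit comparisons between different genes, such as the summed mitotic level relative to the summed S phase level.

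For each gene the transcript row with the highest mean was taken, and genes at 5.55 or more in at least 2 libraries were kept, 12075 of 16319. Log2(value + 1.11) was fitted over all 18 libraries with limma 3.58.1 (limma-trend, 1 mean per population, R 4.3.3), with Benjamini-Hochberg (BH) adjusted p-values over all genes tested. Contrasts set each population against the mean of the others of its experiment, the small against the large intestine, and monocytes against neutrophils, and a moderated F test was made per experiment. Calls needed an adjusted p under 0.05 together with a log2 fold change of at least 1 in size. Fits were tested on simulated data. Python 3.11.15, pandas 2.3.3, numpy 2.4.6 and matplotlib 3.10.9 were used. Alternatives were 2 pseudocounts, no filter, 2 scalings, mean transcripts, other partners, a replicate block, the experiment alone and leaving out each library.

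The rule for named genes admits all 58 genes, up to 6 called genes per direction and comparison with the largest fold changes, and up to 3 of each further list. The members and lists were chosen with earlier results of these data known. No protein sequences are shown.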

Additional observations from a re-analysis of the deposited data

How the results depend on the processing

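Of 180 calls of single genes, 162 held with equal library totals, 158 with quantile normalization, 164 and 161 with pseudocounts of 5.55 and 0.555, 156 without the filter, 180 with mean transcripts, 134 with the libraries of the own experiment alone and 119 with a replicate block. The block was a fit on a shared number only: over 21 pairs of same-numbered libraries the correlation of deviations was -0.04 to 0.0143, and 0 pairs were over 0.1. With the replicate block the genes called higher were 9 in the large and 3 in the small intestine, 2 in peritoneal macrophages and 11 in monocytes against neutrophils, and 5 were lower in neutrophils; it moved no other count by over 1.5 times. With the own experiment alone, 10 were higher in the large and 6 in the small intestine. With equal library totals, 6 were higher and 3 lower in lung, 7 lower in Kupffer cells, and 40 higher and 1 lower in monocytes against neutrophils.

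Against all 8 other populations, across experiments, 3 were higher in microglia, 3 in the large and 1 in the small intestine (1 lower), 2 in peritoneal macrophages (22 lower), 5 in spleen (2 lower), 5 in lung (1 lower) and 8 in neutrophils (6 lower), and 4 were lower in Kupffer cells. E2f2 then turned to -0.089 in the large and -0.54 in the small intestine and 0.071 in lung, and Kif23 to -0.37 in the small intestine. Against the macrophages of experiment 2 alone, added after seeing the data, 1 was higher and 4 lower in Kupffer cells, 5 and 1 in lung and 4 and 1 in spleen, and Ccnd3 turned to 0.56 in lung and 0.53 in spleen. The cause was not tested.

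Leaving out each library gave the following ranges of genes called higher and lower: microglia 0 to 1 and 21 to 30, peritoneal macrophages 2 to 4 and 4 to 11, small intestine 1 to 13 and 0 to 0, large intestine 3 to 19 and 0 to 0, spleen 2 to 2 and 2 to 5, Kupffer cells 1 to 2 and 4 to 14, lung 2 to 5 and 1 to 9, monocytes 12 to 39 and 2 to 3, neutrophils 2 to 3 and 4 to 13, monocytes against neutrophils 10 to 27 and 1 to 3, and small against large intestine 0 to 0 in both. The F tests gave 27 to 36 in experiment 1 and 25 to 44 in experiment 2. A population left with 1 library was assumed to vary like the others. Low reads limit the mitotic genes of microglia, whose 2 libraries hold 57 and 30 reads over all 30.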
